A study of Mus musculus with 6 samples.

Results

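Macrophages and other leukocytes are not the cells that cartilage is made of. The genes described here are used as markers of their RNA in knee articular cartilage of mice carrying an adseverin knockout and of wild-type mice. Other cells express some of these genes too, such as osteoclasts for Csf1r, Cd68 and Trem2. The set held 10 genes chosen by symbol, Ptprc, Csf1r, Cd14, Cd68, Adgre1, Mrc1, Cd163, Trem2, Lyz2 and Fcgr3, and all 10 were found among the 55401 genes of the deposited count table. All 10 had enough reads to enter the test, among 16260 tested genes. Their counts ran from 30 reads for Cd163 in cKO 1 to 9340 reads for Lyz2 in WT 1.

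RNA was sequenced in 2 groups of 3 libraries. The libraries cKO 1 to 3 carried the genotype label for adseverin knockout, and WT 1 to 3 were labelled wild type. Adseverin, encoded by Scin, severs and caps actin filaments. Mice of both groups were given tamoxifen at 1.5 mg per 10 g of body weight on 5 days in a row from 8 weeks of age, and knee cartilage was taken at 10 weeks. No label names the Cre line or the part of Scin that was removed, so which cell types could lose adseverin was not given. Nor is it stated that the numbered samples came from separate mice. The p-values therefore rest on the spread of these 6 samples, some of which may be technical.

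Mature macrophages arise from blood monocytes or from cells seeded in the embryo, and in the joint they live mainly in the synovial lining, the fat pad and the marrow of the underlying bone. Their survival depends on the receptor CSF1R, and osteoclasts, the bone-resorbing cells of the same lineage, depend on it as well. Healthy articular cartilage has no blood vessels and holds few leukocytes. The myeloid transcription factor PU.1, encoded by Spi1, binds purine-rich sites called PU boxes in the promoters of many myeloid genes.

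Depth was 22664828 to 31014996 reads per library. Scin was at 39.1, 29.9 and 29.4 CPM in cKO and 186, 185 and 219 CPM in WT, so Scin was lower in each cKO library, with 0.166 of the WT level remaining. CPM is the read count scaled to a common library size after TMM normalisation (counts per 1e6 reads). Cartilage RNA was present, since the 12 chondrocyte markers summed to 35910 to 41200 CPM in cKO and 33092 to 34393 CPM in WT. The 9 fibroblast and synovial lining genes were abundant too. They summed to 20300 to 26927 CPM in cKO and 22114 to 28082 CPM in WT. How much RNA came from tissue other than cartilage was not tested. The 10 leukocyte markers summed to 567, 610 and 694 CPM in cKO and to 888, 673 and 742 CPM in WT, with Lyz2 as the largest part. The groups of that sum overlapped, since cKO 3 lay above WT 2, and the chondrocyte sum was higher in each cKO library than in each WT library. The part of that difference in the leukocyte levels was not tested.

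Promoter sequence was available for 7 of the markers from RefSeq on GRCm38.p6, taken as the 250 bases before the annotated start. The PU box core GAGGAA was searched on both strands, and it was present in 6 of the 9 windows of these genes, against 23.3% of 32851 promoter windows in the mouse table. Ptprc and Fcgr3 had 2 windows each, and the 6 windows belonged to 5 genes (Ptprc in 1 of its 2, Cd68, Mrc1, Trem2, and Fcgr3 in both). The 2 windows of each of these genes overlap. In Fcgr3 both windows hold the same site, which lies 6 to 1 bases before 1 start and 15 to 10 before the other. That site was therefore counted in 2 windows, and by gene the core was in 5 of 7. The longer form GAGGAAGT, which contains the core, was in 0 of the 9 and in 2.44% of all windows, and the TATA box TATAAA was in 1 of the 9, a Ptprc window with the match on the opposite strand, and in 12.4% of all windows. Ptprc, Mrc1 and Trem2 are shown because they had the lowest fold changes, with the Ptprc window being the 1 of its 2 that held matches, and Lyz2 because it was the most abundant marker and its window held no match. Capitals mark GAGGAA or its reverse complement TTCCTC, and, in Ptprc, TTTATA, the reverse complement of TATAAA.

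Ptprc, chr1:138175306-138175555, strand minus: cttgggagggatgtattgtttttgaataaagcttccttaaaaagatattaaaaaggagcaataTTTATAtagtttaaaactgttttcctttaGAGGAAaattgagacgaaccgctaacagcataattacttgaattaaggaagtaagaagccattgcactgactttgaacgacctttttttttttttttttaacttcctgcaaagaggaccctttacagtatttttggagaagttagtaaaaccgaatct

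Mrc1, chr2:14229164-14229413, strand plus: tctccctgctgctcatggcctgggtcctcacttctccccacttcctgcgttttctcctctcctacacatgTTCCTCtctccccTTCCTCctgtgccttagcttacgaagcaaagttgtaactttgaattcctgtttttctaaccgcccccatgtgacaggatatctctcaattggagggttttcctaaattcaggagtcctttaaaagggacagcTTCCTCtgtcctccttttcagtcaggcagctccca

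Trem2, chr17:48346151-48346400, strand plus: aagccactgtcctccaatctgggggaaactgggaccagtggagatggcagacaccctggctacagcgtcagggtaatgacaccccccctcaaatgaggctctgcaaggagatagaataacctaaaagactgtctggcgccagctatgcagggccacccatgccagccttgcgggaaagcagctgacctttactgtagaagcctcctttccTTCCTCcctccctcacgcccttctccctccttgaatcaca

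Lyz2, chr10:117282273-117282522, strand minus: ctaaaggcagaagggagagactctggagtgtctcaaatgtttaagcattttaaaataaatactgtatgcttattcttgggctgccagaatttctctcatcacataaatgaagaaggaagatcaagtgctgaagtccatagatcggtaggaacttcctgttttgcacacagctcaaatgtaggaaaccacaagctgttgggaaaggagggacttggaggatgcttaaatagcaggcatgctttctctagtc

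In Ptprc the core lay 158 to 153 bases before the start, on the strand of the gene. Mrc1 held 3 copies on the opposite strand, at 180 to 175, 167 to 162 and 35 to 30 bases before the start, and Trem2 held 1 at 40 to 35 bases before it. These matches describe the letters of the windows and do not show that a factor was bound there.

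The comparison asked whether leukocyte transcripts differed in cartilage after adseverin deletion. All 10 markers had a log2 fold change below 0 (cKO minus WT), where 49.4% of all tested genes did. The markers were measured in the same libraries and can come from the same cells, so these 10 directions are not independent results. Their median was -0.31, and the median of all tested genes was 0.00. In edgeR's quasi-likelihood test with Benjamini-Hochberg adjustment over all tested genes, 0 of the 10 passed an adjusted p of 0.05, and 0.00615% of all genes did, which is Scin alone. At an unadjusted p under 0.05 there was 1 marker, Ptprc, and 2.96% of all genes passed that level as lower. Ptprc was also the 1 marker whose groups did not overlap, where 5.89% of all genes lay wholly lower in cKO. DESeq2 called 1 marker, again Ptprc, where 0.443% of its genes passed in either direction and 0.227% as lower, and limma-voom called 0.

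**Figure D1:**
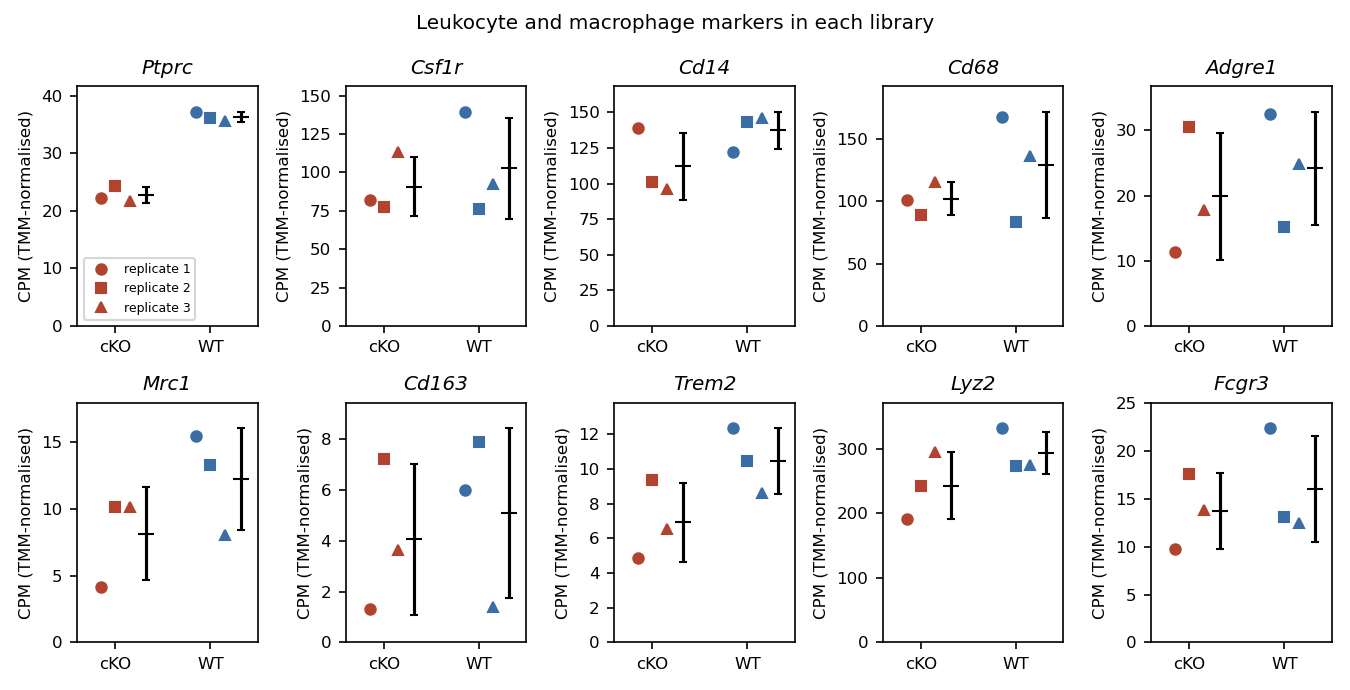
Level of each marker in CPM (y axis, from 0) in the 3 cKO libraries (red, left) and the 3 WT libraries (blue, right), with marker shapes for replicate 1 to 3 and black bars for the mean ± SD. Ptprc is separated by group, at 21.8 to 24.3 CPM in cKO and 35.6 to 37.3 CPM in WT, and the groups of the other 9 markers overlap.

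Ptprc encodes CD45, the tyrosine phosphatase on the surface of leukocytes, and lies on chromosome 1 (GRCm38, 138062861 to 138175708, minus strand). It measured 22.2, 24.3 and 21.8 CPM in cKO 1 to 3, against 37.3, 36.2 and 35.6 CPM in WT 1 to 3. Each cKO library lay below each WT library, and the libraries of a group stayed close together. The means were 22.75 ± 1.32 CPM in cKO and 36.4 ± 0.833 CPM in WT (SD, n = 3 each), which is 0.626 of the WT level. The log2 fold change was -0.68 ± 0.12 (SE; 95% interval -0.94 to -0.41), with an edgeR unadjusted p of 3.41e-04, rank 14 of all tested genes, and an adjusted p of 0.396. DESeq2 gave an adjusted p of 0.00119 on the same counts, so whether Ptprc counts as called depends on the tool. Over the edgeR and limma alternatives its adjusted p was 0.208 to 0.909, and the fold change stayed between -0.73 and -0.64 with any single library left out. Of the 10 markers it varied least within groups, with a coefficient of variation of 5.82% in cKO and 2.29% in WT. In bulk samples such as these, fewer cells of a type and less RNA per cell cannot be told apart.

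The genes whose profile over the 6 libraries was most like that of Ptprc were Gpt2, Utp6 and H2-Ab1, at a root mean square difference of 0.07, 0.09 and 0.10 in centred log2 CPM. H2-Ab1 encodes a chain of MHC class II, the antigen-presenting molecule of macrophages, dendritic cells and B cells. It averaged 141 ± 6.29 CPM in cKO and 226 ± 26.4 CPM in WT, with an edgeR adjusted p of 0.268. As H2-Ab1 was picked here for its likeness to Ptprc, that difference is not a separate result. Gpt2 and Utp6, which were closer, are in none of the gene lists. Of the 6 MHC class II genes, all 6 were below 0 and 0 passed in edgeR, with 3 at an unadjusted p under 0.05. These 3 were H2-Ab1, H2-Aa at -0.59 ± 0.12 and H2-Eb1 at -0.79 ± 0.16 on the log2 scale. H2-DMb1, with the largest p of the list, was at -0.06 ± 0.14. Over all tested genes 49.4% were below 0, and 2.96% were lower at that unadjusted level. The summed level of the 6 genes was 243, 253 and 243 CPM in cKO and 366, 404 and 345 CPM in WT, which separated the groups as Ptprc did. The summed MHC class II level was the closest of 15 list sums to Ptprc, at a difference of 0.08, a comparison chosen after the values were seen. H2-Ab1 was the most abundant gene in that sum.

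Csf1r, the receptor for the macrophage growth factors CSF1 and IL-34, lies on chromosome 18. It measured 81.8, 77.5 and 113 CPM in cKO and 140, 76.0 and 92.5 CPM in WT. WT 1 was the highest library and WT 2 the lowest, so the WT group spanned the whole cKO group. The log2 fold change was -0.18 ± 0.23 (95% interval -0.70 to 0.35; edgeR adjusted p = 0.937), and it was 0.10 without WT 1 and -0.37 without cKO 3. Its ligands did not pass either. Csf1 averaged 107 ± 7.48 CPM in cKO and 108 ± 18.2 CPM in WT, with a log2 fold change of -0.01 ± 0.13, and Il34 averaged 12.5 ± 2.63 CPM in cKO and 11.3 ± 2.41 CPM in WT, with 0.15 ± 0.24. The exons of Csf1r overlap those of Hmgxb3 on the opposite strand over 873 bases, 15.1% of its exon length, and whether the counting used strand is not stated.

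Cd68, a glycoprotein of lysosomes and endosomes that is abundant in macrophages and osteoclasts, lies on chromosome 11 (69664213 to 69666153, minus strand). It measured 101, 89.3 and 116 CPM in cKO and 168, 83.5 and 137 CPM in WT. Again WT 1 was highest and WT 2 lowest. For Cd68 the log2 fold change was -0.34 ± 0.23 (95% interval -0.86 to 0.18; edgeR adjusted p = 0.864), and it was -0.11 without WT 1 and -0.58 without WT 2. Cd68 and Csf1r were the closest pair among the 10 markers, with a root mean square difference of 0.17 between their centred log2 levels. Outside the markers, Srgap1, Stmn1 and Spata1 were closest to Cd68, at 0.04, 0.08 and 0.09.

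The levels of Cd68 and Csf1r were set beside the list sums. For Cd68 the osteoclast and pan-leukocyte sums were about equally close, at differences of 0.20 and 0.21, and for Csf1r the pan-leukocyte sum was closest at 0.10, with the osteoclast sum at rank 4 with 0.26. The sum of 7 osteoclast genes was 1370, 840 and 1621 CPM in cKO and 2057, 859 and 1640 CPM in WT, and its 4 highest libraries (WT 1, WT 3, cKO 3 and cKO 1) were in the same order as those of Cd68. All 7 osteoclast genes were below 0 and 0 passed in edgeR (0 at an unadjusted p under 0.05), with Ctsk at -0.37 ± 0.30, Acp5 at -0.28 ± 0.34 and Mmp9 at -0.03 ± 0.34 on the log2 scale. The share below 0 was 49.4% over all tested genes. The part of osteoclast RNA in the levels of Cd68 and Csf1r was not tested.

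**Figure D2:**
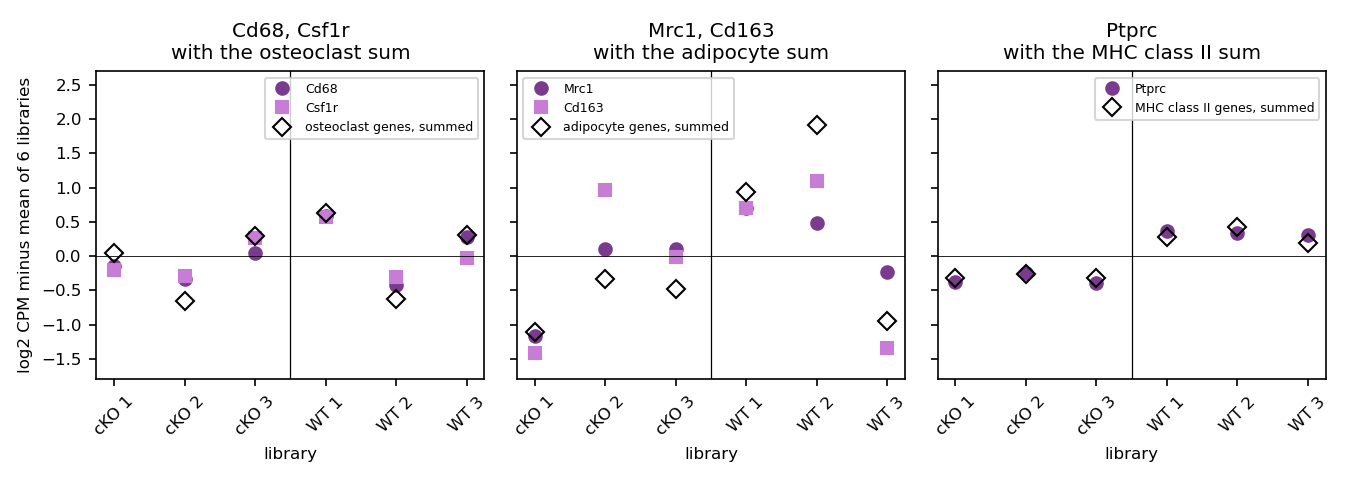
Centred log2 level (y axis, log2 CPM minus the mean of the 6 libraries) in each library (x axis, cKO left of WT) for Cd68 and Csf1r with the summed osteoclast genes, for Mrc1 and Cd163 with the summed adipocyte genes, and for Ptprc with the summed MHC class II genes (diamonds). Cd68 and the osteoclast sum are both highest in WT 1, at 0.58 and 0.63, while the MHC class II sum separates the groups as Ptprc does.

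Adgre1 encodes F4/80, a surface receptor long used to recognise mouse macrophages, and lies on chromosome 17 (57358691 to 57483527, plus strand). It measured 11.3, 30.5 and 17.7 CPM in cKO and 32.5, 15.1 and 24.8 CPM in WT. The groups overlapped widely, with cKO 2 second only to WT 1 and cKO 1 lowest. The log2 fold change was -0.28 ± 0.38 (95% interval -1.15 to 0.59; edgeR adjusted p = 0.943), and it was 0.0017 without cKO 1 and -0.74 without cKO 2. Fntb, Lrrn2 and Klhl6 had the profiles most like that of Adgre1, at root mean square differences of 0.19, 0.19 and 0.20.

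Lyz2 encodes lysozyme M, an enzyme against bacterial cell walls that macrophages and neutrophils both make, and lies on chromosome 10 (117277331 to 117282321, minus strand). It measured 192, 242 and 296 CPM in cKO and 332, 274 and 276 CPM in WT. WT 1 was highest and cKO 1 lowest, and cKO 3 lay above WT 2 and WT 3. Its log2 fold change was -0.27 ± 0.16 (95% interval -0.63 to 0.08; edgeR adjusted p = 0.840), and it was -0.13 without cKO 1 and -0.44 without cKO 3. Pcsk5, Marcksl1 and Ythdf1 had the profiles most like that of Lyz2, at differences of 0.04, 0.06 and 0.06. Its neighbour Lyz1, a near copy, shares 195 of 1267 stretches of 50 bases with Lyz2 transcripts (15.4%), so reads of the pair can be uncertain. Lyz1 had 5 to 33 reads per library, too few to enter the test, and adding them to Lyz2 gave a log2 fold change of -0.28.

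Neutrophil genes had mostly positive fold changes. Of 11 genes 9 were above 0 and 2 below (median 0.40), where 8229 of all 16260 tested genes were above 0. In edgeR 0 of the 11 passed, with 1 at an unadjusted p under 0.05 as higher, where 3.54% of all genes were. The neutrophil sum was 1348, 1759 and 2824 CPM in cKO and 2008, 1144 and 1564 CPM in WT. Its highest library, cKO 3, was the cKO library with the most Lyz2. Retnlg and Ly6g were at 0.77 ± 0.30 and 0.82 ± 0.39, and Ngp and S100a8, the most abundant, at 0.40 ± 0.29 and 0.35 ± 0.28 on the log2 scale. Among the list sums, that of the neutrophil genes ranked 11 in closeness to Lyz2, at a difference of 0.37. The fibroblast and synovial lining sum was closest to Lyz2, at 0.13. For Ptprc and Cd14 the neutrophil sum ranked 13, and for Fcgr3 it ranked 8. The part of neutrophil RNA in Lyz2, Ptprc, Cd14 and Fcgr3, which neutrophils also express, was not tested.

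Cd14, the co-receptor that hands bacterial lipopolysaccharide to TLR4, lies on chromosome 18. It measured 139, 101 and 95.9 CPM in cKO and 122, 143 and 146 CPM in WT. Here cKO 1 was the highest cKO library and lay above WT 1. Cd14 had a log2 fold change of -0.29 ± 0.15 (95% interval -0.63 to 0.05; edgeR adjusted p = 0.810), and it was -0.48 without cKO 1 and -0.19 without cKO 3. Imp3, Irf7 and Smyd5 had the profiles most like that of Cd14, at differences of 0.04, 0.05 and 0.06. Of its partners, Lbp, the serum protein that delivers lipopolysaccharide to CD14, was at 110, 105 and 84.7 CPM in cKO and 138, 148 and 137 CPM in WT. Its groups did not overlap, and the log2 fold change was -0.50 ± 0.11 (edgeR adjusted p = 0.596). Tlr4 and its adaptor Ly96 had 0.00 ± 0.24 and -0.02 ± 0.34.

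Fcgr3, a low-affinity activating receptor for IgG, lies on chromosome 1 (171051174 to 171064935, minus strand). It measured 9.74, 17.6 and 13.8 CPM in cKO and 22.4, 13.2 and 12.5 CPM in WT. WT 1 stood apart from the other WT libraries, both of which lay below cKO 2 and cKO 3. For Fcgr3 the log2 fold change was -0.22 ± 0.29 (95% interval -0.89 to 0.45; edgeR adjusted p = 0.941), and it was 0.10 without WT 1 and -0.44 without cKO 2. Closest in profile to Fcgr3 were Espl1, Ms4a6d and Gpr34, at differences of 0.09, 0.12 and 0.13. Fcgr3 shares 166 of its 1733 stretches of 50 bases (9.58%) with Fcgr2b, so part of the reads of this pair can be uncertain. Fcgr2b, the inhibitory receptor, was at 5.39 ± 0.278 CPM in cKO and 8.26 ± 1.41 CPM in WT with no overlap (log2 fold change -0.62 ± 0.23; edgeR adjusted p = 0.711). The other receptors Fcgr1 and Fcgr4 had 0.78 ± 0.54 and 0.03 ± 0.79, and the shared signalling chain Fcer1g had -0.22 ± 0.19.

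Trem2, a lipid-sensing receptor of tissue macrophages and osteoclasts, lies on chromosome 17 (48346401 to 48354147, plus strand). It measured 4.87, 9.38 and 6.53 CPM in cKO and 12.3, 10.4 and 8.59 CPM in WT. The groups overlapped only through cKO 2, which lay above WT 3. Trem2 had a log2 fold change of -0.59 ± 0.29 (95% interval -1.25 to 0.06; edgeR adjusted p = 0.793), and it was -0.39 without cKO 1 and -0.88 without cKO 2. Its adaptor Tyrobp, known as DAP12, was at 35.5, 28.6 and 58.5 CPM in cKO and 62.3, 41.6 and 54.5 CPM in WT (log2 fold change -0.37 ± 0.26), and the alternative adaptor Hcst had 0.04 ± 0.40. Apoe, a lipoprotein that TREM2 binds, had -0.18 ± 0.10. The genes with profiles most like that of Trem2 were Saal1, Serpina3n and Ctss, at differences of 0.12, 0.13 and 0.15. Ctss, a lysosomal protease of antigen-presenting cells, averaged 42.4 ± 6.25 CPM in cKO and 66.6 ± 10.4 CPM in WT (edgeR adjusted p = 0.605). It was picked here for its likeness to Trem2, so that difference is not a separate result.

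Mrc1 encodes CD206, a mannose-binding endocytic receptor typical of resident macrophages, and lies on chromosome 2 (14229392 to 14332057, plus strand). It measured 4.16, 10.1 and 10.2 CPM in cKO and 15.4, 13.3 and 8.06 CPM in WT. WT 3 lay below cKO 2 and cKO 3, and cKO 1 was lowest. Between cKO and WT the log2 fold change of Mrc1 was -0.59 ± 0.38 (95% interval -1.45 to 0.28; edgeR adjusted p = 0.861), and it was -0.27 without cKO 1 and -0.81 without WT 3. Closest in profile to Mrc1 were Chst15, Wdr55 and Nnmt, at differences of 0.16, 0.17 and 0.18. Mrc2, a collagen-binding relative made by mesenchymal cells, had -0.21 ± 0.11.

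Cd163, the scavenger receptor that takes up haemoglobin bound to haptoglobin, lies on chromosome 6 (124304656 to 124330527, plus strand). It measured 1.33, 7.24 and 3.64 CPM in cKO and 6.01, 7.90 and 1.41 CPM in WT, from 30 to 220 reads per library. High and low libraries occurred in both groups, with cKO 2 and WT 2 high and cKO 1 and WT 3 low. The coefficient of variation was 73.2% in cKO and 65.4% in WT, the highest of the 10 markers. The log2 fold change was -0.32 ± 0.71 (95% interval -1.93 to 1.297; edgeR adjusted p = 0.970), and it was 0.10 without cKO 1 and 0.13 without WT 2, against -1.04 without cKO 2 and -0.76 without WT 3. Haptoglobin (Hp), the haem-degrading enzyme Hmox1 and the iron exporter Slc40a1 had 0.02 ± 0.22, -0.24 ± 0.29 and 0.33 ± 0.19. The genes with profiles most like that of Cd163 were Mgl2, a lectin of macrophages and dendritic cells, Bmper and Gpnmb, at differences of 0.39, 0.45 and 0.46.

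Of the 15 list sums, that of the adipocyte genes was closest to Cd163, at a difference of 0.70. For Mrc1 it ranked 12 at 0.72, and the MHC class II and other myeloid sums were closest at 0.48 each. Such sums weigh the most abundant genes most. Lgals3 averaged 943 of the 1451 CPM of the other myeloid sum in cKO and 962 of 1568 CPM in WT. In WT 2, Cfd made up 104 of the 167 CPM of the adipocyte sum. The adipocyte sum was 20.5, 35.1 and 31.6 CPM in cKO and 85.1, 167 and 23.0 CPM in WT. It was lowest in cKO 1 and next lowest in WT 3, the libraries with the least Cd163 and Mrc1, and highest in WT 2, the library with the most Cd163, whereas Mrc1 was highest in WT 1. The 6 genes were all below 0, and 0 passed in edgeR, with 2 at an unadjusted p under 0.05 (Cfd at -2.40 ± 0.78 and Fabp4 at -1.27 ± 0.42). For all tested genes the shares were 49.4% below 0 and 2.96% lower at that unadjusted level. The part of adipose tissue in the levels of Cd163 and Mrc1 was not tested.

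**Figure D3:**
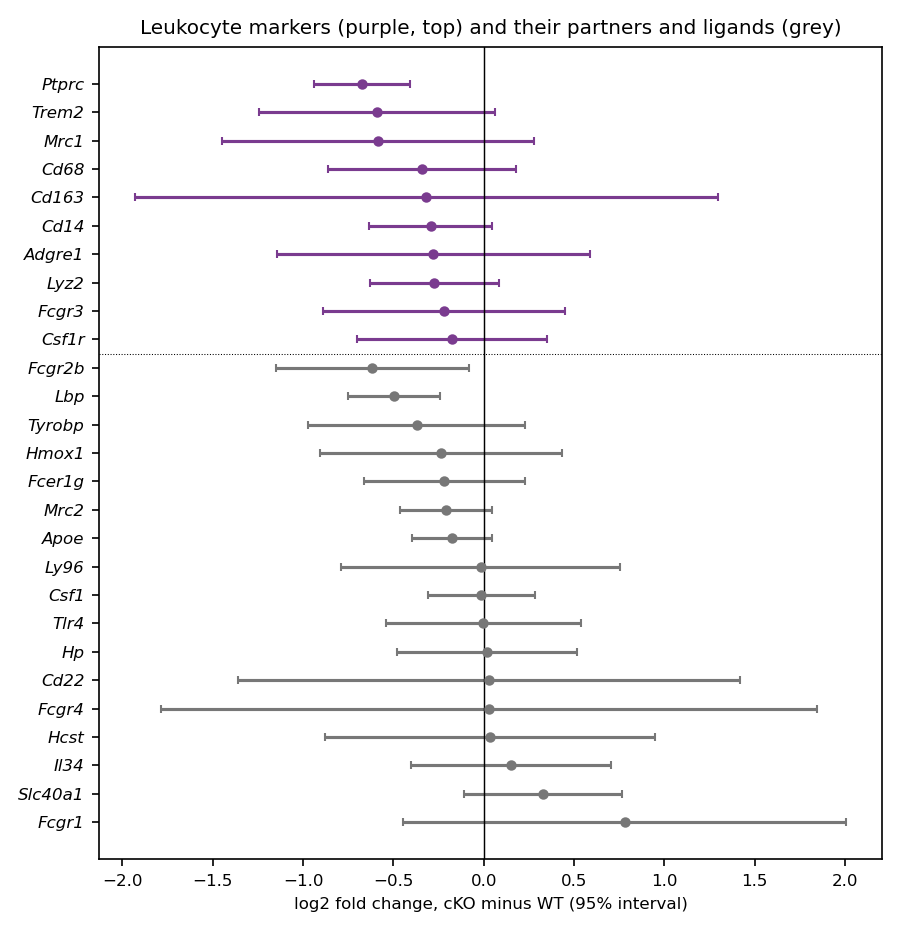
Log2 fold change, cKO minus WT, with its 95% interval from edgeR (x axis) for the 10 markers (purple, top) and for 17 partner and ligand genes (grey, bottom). The interval of Ptprc runs from -0.94 to -0.41 and those of the other 9 markers include 0.

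Partners and ligands as a whole were divided. Of 18 listed genes 17 were tested, 10 below and 7 above 0 with a median of -0.01, and 0 passed in edgeR, with 2 at an unadjusted p under 0.05 (Lbp and Fcgr2b). Both were lower in cKO, where 2.96% of all tested genes were lower at that level and 49.4% were below 0. Cd22, a B cell lectin that binds glycans of CD45, had 0.03 ± 0.61.

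Between genes, levels were compared per length, as CPM per kilobase of the main coding transcript. That transcript has 1088 bases for Trem2 and 4702 for Ptprc, where all annotated exons together cover 4946 and 18313 bases. The order of the genes thus holds for the length chosen, and other lengths were not tested. Lyz2 stood highest at 185 ± 39.6 in cKO and 223 ± 25.2 in WT, and its libraries did not overlap those of the next gene. Cd68 and Cd14 followed at 83.0 ± 10.7 and 68.2 ± 14.2 in cKO and at 105 ± 34.7 and 83.6 ± 8.04 in WT, and did not differ from each other beyond their spread. Csf1r came next at 19.3 ± 4.13 in cKO and 21.8 ± 7.01 in WT, below every library of Cd14. Fcgr3, Trem2, Adgre1 and Ptprc followed, at 10.2, 6.37, 6.13 and 4.84 in cKO and at 11.9, 9.61, 7.46 and 7.73 in WT, and neighbours in that order overlapped. Mrc1 at 1.52 in cKO and 2.28 in WT and Cd163 at 0.924 in cKO and 1.16 in WT were lowest and overlapped each other.

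The markers were then read library by library. WT 1 held the highest level of 8 of the 10 markers and cKO 1 the lowest of 6. Centred on each gene's own mean, the median over the 10 markers was -0.51, -0.01 and -0.03 in cKO 1 to 3 and 0.57, 0.14 and 0.05 in WT 1 to 3. WT 1 and cKO 1 stood farthest from the middle, and the other 4 libraries lay between them.

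**Figure D4:**
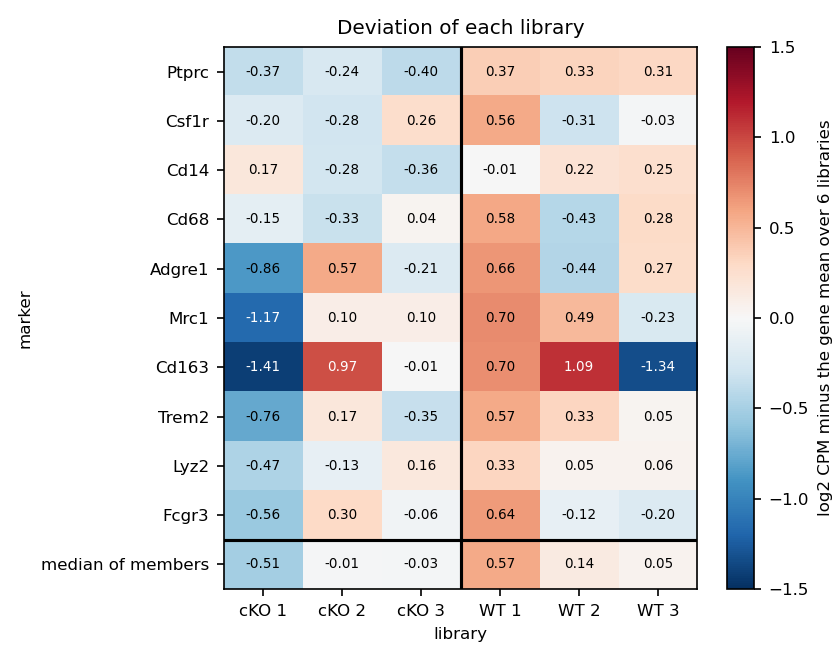
Log2 CPM of each marker minus its own mean over the 6 libraries (colour and printed value), with markers down the page, cKO libraries left of WT libraries and the median of the 10 in the bottom row. WT 1 is high at 0.57 and cKO 1 low at -0.51 in the median, whereas Ptprc is low in every cKO library.

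Leaving out libraries moved most of the fold changes. The number of markers below 0 was 8 without cKO 1, 8 without WT 1, 9 without WT 2 and 10 without any of the others. The median log2 fold change was -0.20 without cKO 1 and -0.18 without WT 1, against -0.58 without cKO 2 and -0.45 without WT 2. Csf1r, Adgre1, Cd163 and Fcgr3 were the markers whose direction turned at least once. Ptprc, Cd14, Cd68, Mrc1, Trem2 and Lyz2 kept theirs.

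**Figure D5:**
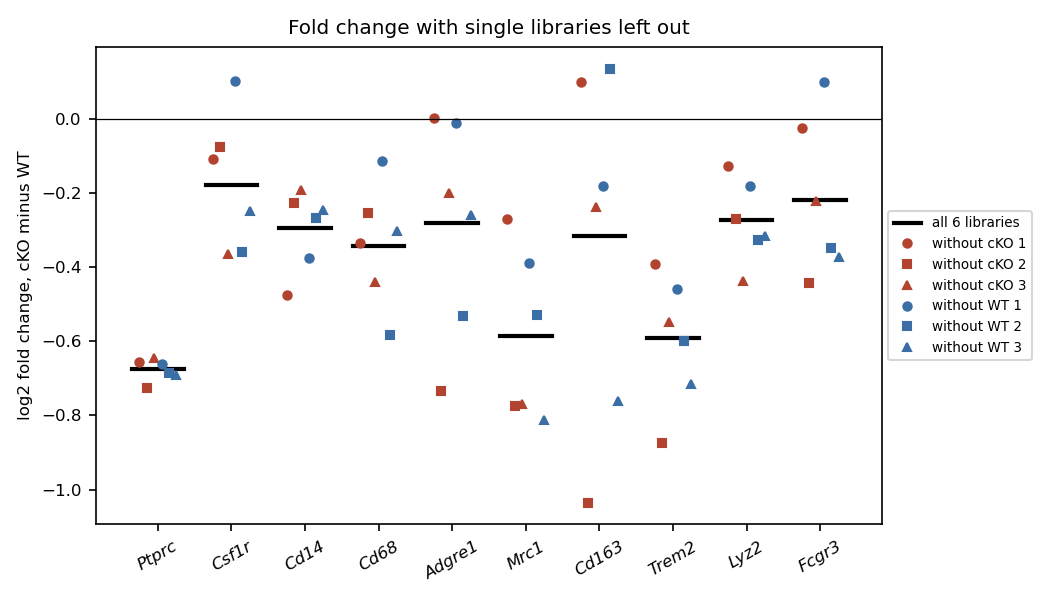
Log2 fold change, cKO minus WT (y axis), of each marker with all 6 libraries (black line) and with each library left out (red without a cKO library, blue without a WT library). Ptprc stays between -0.73 and -0.64, and Cd163 ranges from -1.04 to 0.13.

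Set against Ptprc in the same library, the other 9 markers were all higher in cKO. The log2 ratio to Ptprc was higher by 0.52 for Csf1r, 0.47 for Fcgr3, 0.39 for Lyz2, 0.38 for Cd68, 0.37 for Cd14 and Cd163, and 0.34 for Adgre1, and by 0.05 for Trem2 and 0.03 for Mrc1. Single libraries varied, and the ratios of Mrc1 and Trem2 were lowest in cKO 1, at 0.19 and 0.22. All 9 ratios share Ptprc as denominator, so they describe how far Ptprc lay below the rest and carry no test.

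Other genes of the myeloid lineage were given by lists. Of 28 further macrophage and myeloid genes 26 were tested, with 21 below and 5 above 0 and a median of -0.30, and 0 passed in edgeR (3 at an unadjusted p under 0.05, as lower). Among all tested genes 49.4% were below 0, and 2.96% were lower at that unadjusted level. Ctss and C1qa, a complement subunit made by tissue macrophages, had -0.65 ± 0.15 and -0.68 ± 0.21, while C1qc and Lgals3, the most abundant, had -0.24 ± 0.27 and -0.03 ± 0.08. Spi1, which encodes PU.1, was at 26.8 ± 6.80 CPM in cKO and 31.8 ± 7.90 CPM in WT (log2 fold change -0.25 ± 0.23), a gene named after its value was seen. Marco and Siglec1 had 0 to 2 and 0 to 45 reads per library and were not tested.

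Pan-leukocyte genes other than Ptprc were mixed in sign. Of 16 genes 11 were below and 5 above 0, with a median of -0.11, and 0 passed in edgeR (0 at an unadjusted p under 0.05). Among all tested genes 49.4% were below 0, and 2.96% were lower at that unadjusted level. Hcls1 and Laptm5 had -0.56 ± 0.25 and -0.37 ± 0.19, and Lcp1 and Arhgdib, the most abundant, had -0.21 ± 0.20 and 0.02 ± 0.14. Lcp1, which encodes an actin-bundling protein of leukocytes, had the profile most like that of Csf1r, at a difference of 0.06, followed by Lair1 at 0.08 and Aox1 at 0.09. The sum of the list was 648, 631 and 843 CPM in cKO and 940, 637 and 704 CPM in WT, and its groups overlapped, unlike Ptprc.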

How the data were processed

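RNA of knee articular cartilage was sequenced as full-length cDNA from ultra-low input (SMART-Seq v4, per the labels' protocols). The authors deposited a table of raw read counts per gene and a table of normalized signal, which are those counts divided by size factors. Per the submitters' processing notes, HISAT2 2.2.1 and GRCm38 were used, with featureCounts 2.0.1, DESeq2 1.30.1 under R 4.0.5, and FastQC 0.11.9, without settings for strand or multiply mapped reads. Of the normalized values 100% returned whole reads within 0.001 read, and edgeR on those reads called 1 gene, as on the counts.

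Groups came from the genotype labels. Counts of 16260 genes that passed filterByExpr were fitted with edgeR 4.0.16 (R 4.3.3; TMM, quasi-likelihood test, Benjamini-Hochberg adjusted p of 0.05), with 3 libraries per group. DESeq2 1.42.0 and limma 3.58.1 were alternatives, beside other scalings, filters, a replicate block and each library left out. The procedure was checked on simulated data. With 3 libraries a group, exact permutation can reach 0.1 at the lowest. Symbols were matched for 55141 of 55401 identifiers, and coordinates and lengths are from GENCODE vM21. Likeness of profiles was the root mean square difference of log2 CPM centred on each gene's mean, over 10439 genes with a mean of at least 5 CPM, and 3 genes were taken per marker. How close the best of so many genes comes by chance was not tested. A list sum adds the CPM of its tested genes, so likeness to a sum is mostly likeness to its most abundant genes. In each list the 2 genes with the smallest p and the 2 most abundant were named, beside all markers and partners. H2-Eb1, H2-DMb1 and Spi1 were named outside that rule. The lists were partners and ligands, other myeloid, pan-leukocyte, MHC class II, neutrophil, T and NK cell, B cell, dendritic, mast cell, osteoclast, erythroid, chondrocyte, fibroblast, endothelial and adipocyte genes. The markers and lists were chosen with earlier results of these data known.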

Additional observations from a re-analysis of the deposited data

How the results depend on the processing

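The fewest reads behind a marker were the 30 of Cd163 in cKO 1, and limits of depth were not tested. Over all tested genes edgeR called 1 gene, Scin. It called 3 with no filter on low counts (Scin, Mcm6 and Trim10), DESeq2 called 82, and with a library left out the count was 1 to 2 (2 without WT 3). The cause of these differences was not tested. Of the 10 markers 0 were called in every setting except DESeq2, which called 1, Ptprc. With a library left out, the number of markers below 0 was 8 to 10 and their median log2 fold change -0.58 to -0.18. In the other settings it was 10, with a median of -0.32 to -0.30. Leaving out a library gave log2 fold changes of -0.37 to 0.10 for Csf1r, -0.74 to 0.0017 for Adgre1, -1.04 to 0.13 for Cd163 and -0.44 to 0.10 for Fcgr3, so each turned direction at least once. With the replicate number as a block, edgeR called 1 gene and 0 markers, 10 markers were below 0, and the median was -0.30. Same-numbered libraries correlated at -0.05, 0.17 and 0.09 in their deviations from the group means over 9093 genes, and cKO 1 and cKO 3 correlated best with another number, so the numbers were not taken as pairs.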

Other observations

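Red blood cell genes had positive fold changes while the leukocyte markers had negative ones. All 10 erythroid genes were above 0 (median 0.51), where 8229 of all 16260 tested genes were. Of the 10, 0 passed in edgeR, and 5 had an unadjusted p under 0.05, all higher. At that level 3.54% of all tested genes were higher. Hemgn and Rhag, the genes of this list with the smallest p in edgeR, had log2 fold changes of 2.11 ± 0.35 and 2.25 ± 0.44. The haemoglobin genes Hbb-bs and Hba-a1 had 0.24 ± 0.16 and 0.23 ± 0.17, and their near-identical copies make those counts uncertain. The erythroid sum was 4420, 2914 and 3259 CPM in cKO and 2768, 2898 and 3106 CPM in WT, highest in cKO 1, the library with the lowest level of 6 of the 10 leukocyte markers.

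Lymphocyte, dendritic and mast cell genes were counted as well. The T and NK cell list had 7 below and 1 above 0 of 8 tested, with Cd3d at 1.37 ± 0.76, Cd4 at -1.17 ± 0.69, Nkg7 at -0.24 ± 0.32 and Lck at -0.58 ± 0.36, and its sum was 19.2 to 34.4 CPM in cKO and 30.8 to 39.0 CPM in WT. The B cell list had 5 below and 2 above 0 of 7, with a sum of 26.8 to 42.6 CPM in cKO and 32.3 to 39.9 CPM in WT. Its named genes were Igll1 at 0.50 ± 0.64, Cd79a at -0.20 ± 0.26 and Cd79b at -0.16 ± 0.25. Dendritic cell genes were 2 below and 2 above 0 of 4 tested, with Itgax at -1.56 ± 0.76, Zbtb46 at 0.31 ± 0.20 and Siglech at -0.27 ± 0.55. Their sum was 31.7 to 44.3 CPM in cKO and 29.3 to 37.3 CPM in WT. Mast cell genes were 3 below of 3 tested, with Tpsb2 at -1.08 ± 0.96, Cma1 at -0.56 ± 1.02 and Cpa3 at -0.79 ± 1.49, at sums of 0.560 to 5.40 CPM in cKO and 1.596 to 7.11 CPM in WT. In edgeR 0 genes of these 4 lists passed, and 0 had an unadjusted p under 0.05. Below 0 were 49.4% of all tested genes.

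Among structural cells, 10 of 12 chondrocyte genes were above 0 and 2 below, with Col2a1 at 0.25 ± 0.10, Comp at 0.13 ± 0.08, Cnmd at 0.33 ± 0.10 and Acan at -0.61 ± 0.13. Fibroblast and synovial lining genes were 7 below and 2 above 0, with Lum at -0.51 ± 0.18, Col3a1 at -0.67 ± 0.25, Dcn at -0.11 ± 0.11 and Col1a1 at -0.08 ± 0.23. Endothelial genes were 4 below and 2 above, with Cdh5 at -0.66 ± 0.40, Kdr at 0.62 ± 0.48, Egfl7 at -0.29 ± 0.35 and Pecam1 at -0.43 ± 0.40. In edgeR 0 genes of these 3 lists passed. At an unadjusted p under 0.05 there were 4 chondrocyte genes (3 higher and 1 lower), 2 fibroblast genes (both lower) and 0 endothelial genes. Of all tested genes 2.96% were lower and 3.54% higher at that level, and 49.4% were below 0.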
